A study of Mus musculus with 2 samples.

Results

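Mutations of genes that act at the centrosome and spindle pole cause primary microcephaly, and 9 of these genes are described here in the embryonic mouse midbrain: Aspm, Cdk5rap2, Mcph1, Wdr62, Cenpj, Cep152, Cep135, Stil and Nde1. They were matched by gene symbol in both gene tables, and the rule that picks them uses no measured value. However, these genes and the lists compared with them were chosen with earlier results of these data known. All 9 were found among the 43346 genes with an Ensembl identifier. The series holds 2 total RNA libraries of midbrain from B6NCrl mice at 14.5 days of embryonic development, with no treatment and no second genotype. Each library was made from 10 ng of RNA longer than 200 nt from the midbrain of 1 pup, and the pups were taken on different days. They are called embryo 1 and embryo 2. The labels give the sex as pooled, although each library comes from 1 pup. Xist, the RNA of the inactive X chromosome, had 3 counts in embryo 1 and 20808 in embryo 2, while the Y-linked Eif2s3y had 1901 counts and 0.

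The centrosome is a pair of centrioles inside a cloud of pericentriolar material that nucleates microtubules. Before each division the centrioles are copied, and the centrosomes then form the poles of the mitotic spindle. In the embryonic brain, radial glia divide with their spindles set at a controlled angle, and loss of a microcephaly gene in mice or humans is known to reduce the pool of these progenitors. Most of these proteins are needed chiefly in dividing cells, while some also serve the centrosomes and dynein transport of neurons.

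The tables assigned 31687050 counts to genes in embryo 1 and 29182388 in embryo 2, of which the 9 genes took 5379 and 2901. Spike-in RNAs took 3.15% and 3.32% of all counts, and mitochondrial genes 1.93% and 2.58% of gene counts. The midbrain label was borne out by Otx2, a homeobox gene of forebrain and midbrain, at a TPM (a transcript level corrected for transcript length and library size) of 99.9 in embryo 1 and 76.3 in embryo 2, and all 8 midbrain genes examined were at a TPM of at least 1 in each embryo. Of these, 4 were higher in each embryo, with a median log2 ratio of embryo 2 over embryo 1 of -0.064, and Pou4f1, named after its value was seen, was the one beyond 1.5-fold. The libraries differed in markers of mesenchyme, of which 9 genes summed to a TPM of 407 in embryo 1 and 11.6 in embryo 2. Collagen Col1a1 had 5749 and 55 counts. With 1 group of 2 libraries there was no comparison between groups and no test, so differences between the embryos are described with counting error only. Sex, collection day and dissection cannot be told apart as sources of such differences.

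All 9 genes had a TPM of at least 1 in each embryo, at low to middling levels for this tissue. Their TPM lay above that of 45.7% to 76.9% of protein-coding genes in embryo 1 and of 41.4% to 66.5% in embryo 2. The median of the 9 was 4.35 in embryo 1 and 2.01 in embryo 2, against 19.9 and 18.6 for protein-coding genes at a TPM of at least 1. Nde1 stood far above the others at 23.3 ± 11.5 (SD, n = 2, the form used for each mean level) and supplied 41.7% of the summed TPM of the 9 genes in embryo 1 and 37.4% in embryo 2. Cdk5rap2 at 8.63 ± 2.48 and Mcph1 at 8.59 ± 1.61 came next and exchanged places between the embryos. Cenpj followed at 4.02 ± 1.87, and the lowest 5 lay close together, with Wdr62 at 3.03 ± 1.44, Aspm at 2.99 ± 1.93, Stil at 2.59 ± 1.77, Cep152 at 2.44 ± 1.02 and Cep135 at 2.44 ± 1.03. Between neighbours in this order, the values of the 2 embryos were apart for Nde1 over Cdk5rap2 and for Mcph1 over Cenpj. The other 6 neighbouring pairs overlapped.

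**Figure D1:**
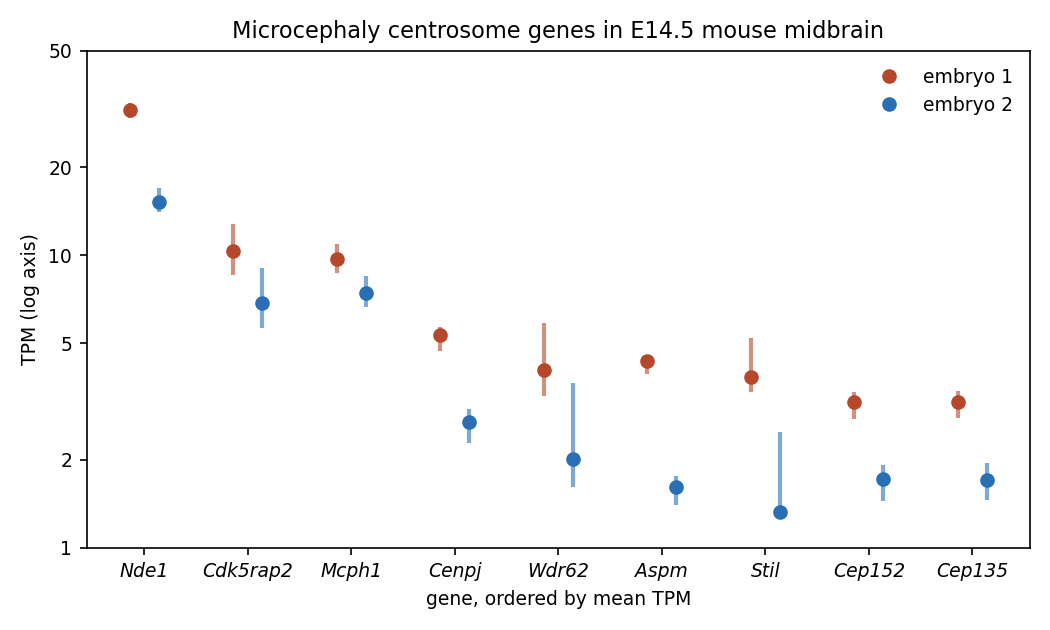
TPM on a log axis for each gene, ordered by mean TPM, with 1 point per embryo and a vertical line for the interval deposited around each TPM. Every gene is higher in embryo 1, Nde1 is the highest in both embryos, and the intervals of Cdk5rap2 and Wdr62 overlap between the embryos.

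Each of the 9 genes was higher in embryo 1. After scaling of the expected counts by the TMM method, the ratio of embryo 1 over embryo 2 ran from 1.17-fold for Mcph1 to 2.42-fold for Aspm, with a median of 1.79-fold, a log2 ratio of -0.84 for embryo 2 relative to embryo 1. Among the 14011 genes with at least 100 summed counts, 49.4% were higher in embryo 1, and the median log2 ratio was 0.0057. A ratio of at least 1.5-fold toward embryo 1 was reached by 7 of the 9 genes, against 8.55% of all genes, and one of at least 2-fold by Aspm and Stil, against 3.35%. None of the 9 reached 1.5-fold toward embryo 2, against 5.66% of all genes, or 2-fold, against 1.43%. With spike-in totals as the scale, 4 of the 9 were at least 2-fold higher, against 4.24% of all genes, and with ratios of TPM 4 of the 9, against 4.6%. The 2 genes under 1.5-fold were Cdk5rap2 and Mcph1. The 95% counting interval lay above 1 for all 9, against 33.6% of all genes, and above 1.5 for Aspm, Stil, Wdr62, Nde1 and Cenpj, against 4.7%. The interval deposited around the TPM of embryo 1 lay wholly above that of embryo 2 for 7 genes, against 34% of all genes, the exceptions being Cdk5rap2 and Wdr62.

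The size of these ratios can be set beside the spike-ins, which were added to both samples. Spike-ins carry no difference between pups or dissections. The 17 spike-ins with summed counts in the range of the 9 genes, from 329 to 1860, had a median absolute log2 ratio of 0.14 when scaled to the spike-in total, and the largest was 1.33-fold. On the same scale 8 of the 9 genes were higher in embryo 1 by more than that, against 21.1% of all genes. Mcph1, at 1.26-fold on this scale, was not, and Cdk5rap2 was close to it at 1.42-fold. Ratios also moved with transcript length. Genes whose longest transcript was 109 to 1383 nt had a median log2 ratio of 0.24, those of 4558 to 5369 nt -0.10, and those of at least 6939 nt -0.068. Of the 9 genes, 8 fell in the 3 longest of 10 length classes. After subtraction of the median of genes of like length and GC content, the log2 ratio of Aspm was -1.23 and that of Mcph1 was -0.011, and all 9 stayed below 0.

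**Figure D2:**
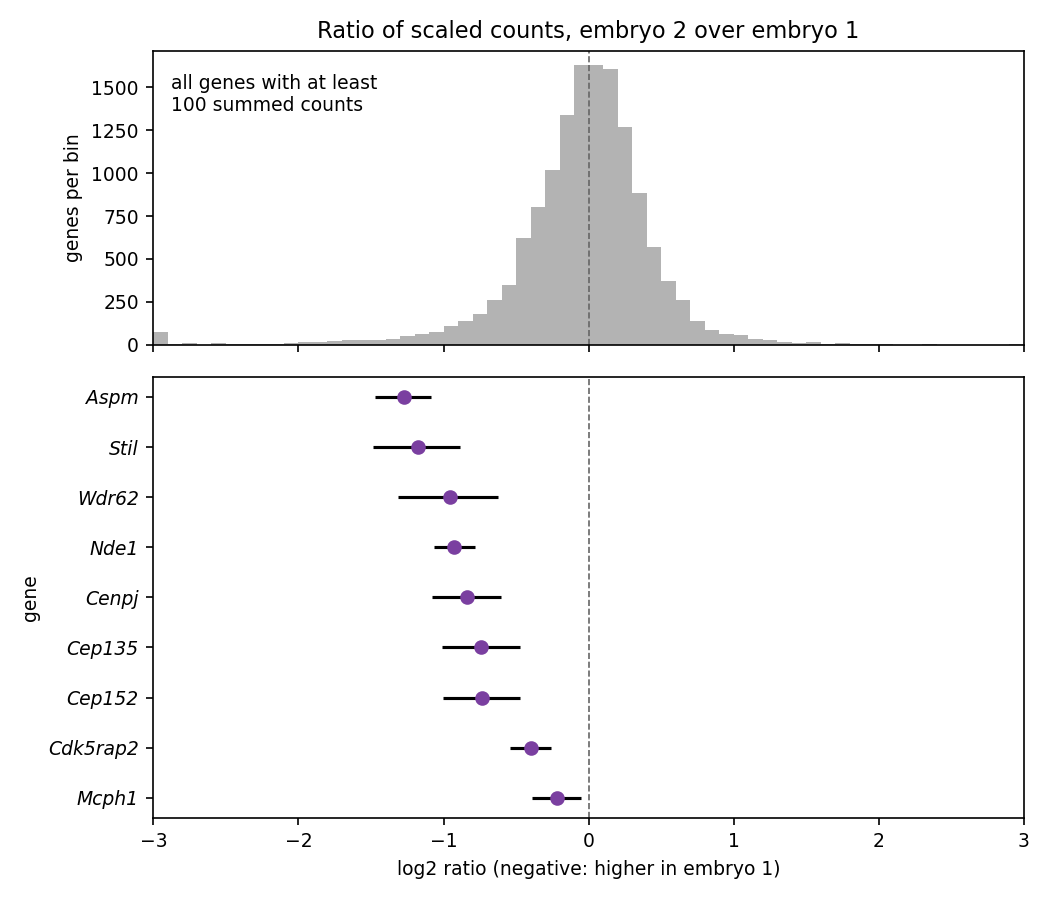
Top, number of genes per bin of the log2 ratio of scaled counts (embryo 2 over embryo 1) for all genes with at least 100 summed counts, with ratios beyond 3 in either direction counted in the end bins. Bottom, the same ratio for each of the 9 genes with its 95% counting interval, from -1.27 for Aspm to -0.22 for Mcph1, all to the left of 0.

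The spindle pole genes Aspm, Wdr62 and Nde1 were among the 4 with the widest gap between the embryos. Aspm (chromosome 1, 139454772 to 139494091, GRCm38) encodes a large protein that binds the minus ends of spindle microtubules and calmodulin, and its gene is the one most often mutated in human primary microcephaly. It had 813 counts in embryo 1 and 303 in embryo 2, with TPM values of 4.35 and 1.62, and was 2.42-fold higher in embryo 1 (95% counting interval 2.12 to 2.77). Only 2.10% of all genes had a log2 ratio further toward embryo 1. Citron kinase Cit, another microcephaly protein, which works at the midbody and associates with Aspm, went the other way at 13.3 in embryo 1 and 14.8 in embryo 2, which was 1.23-fold higher in embryo 2 by scaled counts. The TPM of Cit was 3.05 times that of Aspm in embryo 1 and 9.15 times in embryo 2.

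Wdr62 (chromosome 7, 30240138 to 30280419) encodes a WD40-repeat scaffold that recruits other microcephaly proteins to the mother centriole and the spindle pole. Its 225 and 104.3 counts were the fewest among the 9, its TPM was 4.05 and 2.01, and it was 1.95-fold higher in embryo 1 (1.54 to 2.49). The deposited TPM intervals of Wdr62 were wide, from 3.29 to 5.88 in embryo 1 and from 1.61 to 3.65 in embryo 2. The annotated span of Thap8 on the opposite strand shares 326 bases with Wdr62, and Thap8 had 0 and 2.73 counts.

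Nde1 (chromosome 16, 14163275 to 14192928) encodes a coiled-coil protein that ties the dynein motor to Lis1, the product of Pafah1b1, at the centrosome and the nuclear envelope. It had 1261 and 599 counts and TPM values of 31.4 and 15.2, and was 1.90-fold higher in embryo 1 (1.72 to 2.10). Its paralogue Ndel1, which is prominent in neurons, stood at 69.6 and 52.7 and differed by 1.16-fold. Nde1 therefore made up 31.1% of the TPM of the pair in embryo 1 and 22.3% in embryo 2. Pafah1b1 stood at 93.6 and 80.1 in TPM, whereas its scaled counts were 1.15-fold higher in embryo 2. The neighbouring gene Marf1, which starts on the opposite strand and shares 77 bases with Nde1, was 1.83-fold higher in embryo 2 (1.72 to 1.94), with 1684 and 2775 counts. Whether the counting used strand is not stated in the sources used here, so reads in the shared bases cannot be told apart.

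The genes of centriole assembly, Stil, Cenpj, Cep152 and Cep135, were all at least 1.66-fold higher in embryo 1. Stil (chromosome 4, 115000159 to 115043196) encodes the partner of the kinase Plk4 that recruits the cartwheel protein Sass6 to a new centriole. It had 332 counts in embryo 1 and 132 in embryo 2, with TPM values of 3.84 and 1.33, and was 2.27-fold higher in embryo 1 (1.85 to 2.80). The deposited TPM of Stil in embryo 2 lay just below its own deposited interval of 1.36 to 2.49, and the posterior mean TPM was 1.89. Plk4 stood at 12.4 and 8.01 and was 1.32-fold higher in embryo 1 (1.18 to 1.48), and Sass6 stood at 9.04 and 5.50 and was 1.49-fold higher (1.32 to 1.68). Both exceeded Stil, by 3.23 and 2.35 times in embryo 1 and by 6.02 and 4.14 times in embryo 2.

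Cenpj (chromosome 14, 56526761 to 56575425), also called CPAP, sets the length of the microtubule wall of the centriole. It had 436 and 220 counts and TPM values of 5.34 and 2.70, and was 1.79-fold higher in embryo 1 (1.52 to 2.11). Cep152 (chromosome 2, 125563088 to 125625113) encodes a ring protein around the mother centriole that brings Plk4 to the site of assembly. Its 343 and 186 counts gave TPM values of 3.16 and 1.72 and a ratio of 1.66-fold (1.39 to 2.00). Cep63 and Cep192, whose proteins place Cep152 and Plk4, were more abundant and closer between the embryos, Cep63 at 24.4 and 17.7 and Cep192 at 7.11 and 4.88. Cep135 (chromosome 5, 76588698 to 76646466), a protein of the cartwheel and proximal centriole, had 330 and 178 counts and TPM values of 3.16 and 1.71. It was 1.67-fold higher in embryo 1 (1.39 to 2.02), and its levels matched those of Cep152 within 0.01 TPM in each embryo.

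Cdk5rap2 and Mcph1 had smaller ratios than the other 7, and their levels ranked next after that of Nde1. Cdk5rap2 (chromosome 4, 70216856 to 70410443) encodes a scaffold of the pericentriolar material that anchors and activates gamma-tubulin rings. It had 999.7 and 684.1 counts and TPM values of 10.4 and 6.87, and was 1.32-fold higher in embryo 1 (1.20 to 1.46). Its binding partner Pcnt, the scaffold pericentrin, stood at 4.56 and 3.22 and differed by 1.28-fold (1.15 to 1.43), so that Cdk5rap2 supplied 69.5% and 68.1% of the TPM of that pair. Gamma-tubulin itself, Tubg1, was at 59.1 and 59.0. A pseudogene within the span of Cdk5rap2 on the same strand, Ywhaq-ps3, had 114.6 and 28.4 counts of its own.

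Mcph1 (chromosome 8, 18595131 to 18803189) encodes microcephalin, a BRCT-domain protein that restrains condensin and delays entry into mitosis. It had 639 and 495 counts and TPM values of 9.73 and 7.45, and was 1.17-fold higher in embryo 1 (1.03 to 1.31), the smallest ratio of the 9. The angiopoietin gene Angpt2 lies wholly within Mcph1 on the opposite strand. It had 195 and 62 counts and was 2.84-fold higher in embryo 1 (2.12 to 3.84), as the endothelial genes were.

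Genes of the G2 and M phases of the cell cycle were higher in embryo 1 by about as much as the 9 genes. All 15 G2 and M phase genes were higher in embryo 1, each by at least 1.5-fold and 6 by at least 2-fold, with a median log2 ratio of -0.88 beside -0.84 for the 9. Mki67, the proliferation marker, was 1.83-fold higher in embryo 1 with TPM values of 10.1 and 4.98, and Cdk1, the mitotic kinase gene and the most abundant of that list, 1.60-fold higher. Of the 6 over 2-fold, Top2a was at 2.57-fold, Kif20a at 2.42-fold, Ccnb1 at 2.19-fold and Ccna2 at 2.17-fold. The summed TPM of the 9 genes was 14.5% of that of the G2 and M list in embryo 1 and 15.8% in embryo 2. Cdk5rap2 and Mcph1 lay outside the range of the G2 and M list, from -1.36 to -0.68, and the other 7 within it. Fewer dividing cells and less RNA per cell cannot be told apart in bulk tissue.

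S phase genes had a smaller median ratio. Of 15, 14 were higher in embryo 1 and 6 by at least 1.5-fold, with a median log2 ratio of -0.48. Slbp, the histone mRNA binding protein and the most abundant, differed by 1.12-fold, and the replication clamp Pcna by 1.03-fold. Of 15 radial glia and progenitor genes, 11 were higher in embryo 1 but 1 by at least 1.5-fold, and the median log2 ratio was -0.12. That one was the membrane protein gene Prom1 at 1.66-fold, named after its value was seen. The median of this list was -0.23 with spike-in totals, -0.29 by TPM and -0.22 with the length and GC trend removed. Pax6 and Ptprz1 turned toward embryo 1 by spike-in totals and by TPM. Slc1a3 and Ednrb turned toward embryo 2 with that trend removed. Pax6, Ptprz1, Slc1a3 and Ednrb are named after their values were seen. The lipid-binding Fabp7, the most abundant of these, was 1.38-fold higher in embryo 2 and the progenitor factor Sox2 1.46-fold higher in embryo 2. The summed TPM of the 9 genes was 3.25% of that of the progenitor list in embryo 1 and 1.74% in embryo 2. These shares depend much on Fabp7, which alone supplied 1214 of the 2319 TPM of that list in embryo 1 and 1511 of 2337 in embryo 2. Of 14 young neuron genes, 11 were higher in embryo 2, with Stmn2 and Rbfox3, named after their values were seen, beyond 1.5-fold. The median log2 ratio was 0.15, 0.039 with spike-in totals, 0.23 with the length and GC trend removed and -0.013 by TPM, and their most abundant member Tubb3 differed by 1.07-fold, in a direction that turned by spike-in totals, by TPM and with the length and GC trend removed. Elavl4, Ina and Nhlh2 also turned toward embryo 1 by spike-in totals and by TPM, and Ina with that trend removed. With it removed, Map2 and Nefl turned toward embryo 2. These genes are named after their values were seen.

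**Figure D3:**
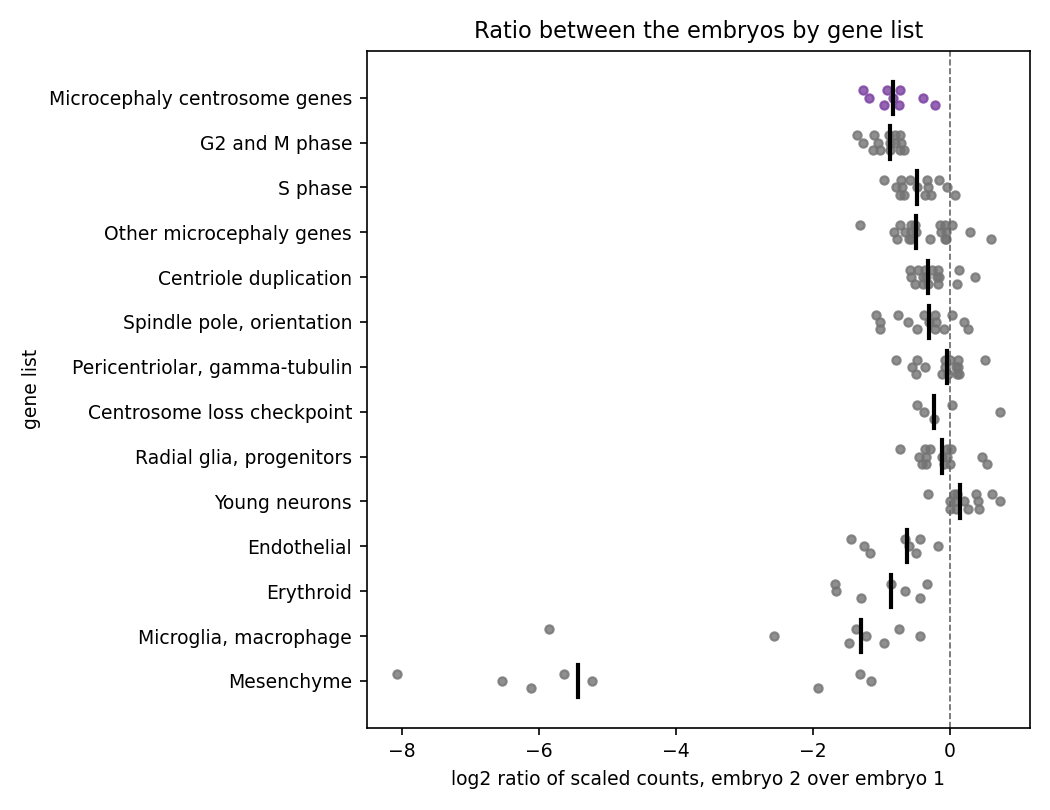
Log2 ratio of scaled counts (embryo 2 over embryo 1) for each gene with at least 100 summed counts, by gene list, with 1 point per gene and a black bar at the median. The 9 microcephaly centrosome genes (purple) have a median of -0.84, next to -0.86 for erythroid genes and -0.88 for G2 and M phase genes. The progenitor median is -0.12, and mesenchyme genes lie far to the left.

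Other genes of the same structures and of the same disease had median ratios closer to 0. Among 22 further microcephaly genes, 21 were found, 18 were higher in embryo 1, 6 by at least 1.5-fold and 1 by at least 2-fold, with a median log2 ratio of -0.50. The mitotic kinesin Kif14 was the one over 2-fold, at 2.50-fold (1.93 to 3.28) with TPM values of 1.54 and 0.63. The coatomer gene Copb2 was the most abundant at 117 and 65.7 and 1.66-fold higher in embryo 1. Cit and the lamin gene Lmnb2, the latter 1.52-fold higher in embryo 2 and named after its value was seen, were higher in embryo 2, as was Phc1 by 1.02-fold, which was higher in embryo 1 by spike-in totals and by TPM.

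Of 17 centriole duplication genes, which include Plk4, Cep63, Cep192 and Sass6 (the last also counted among the microcephaly genes), 14 were higher in embryo 1, and the median log2 ratio was -0.32. Cep120, a partner of Cenpj, with TPM values of 44.0 and 26.5, lay at the 1.5-fold threshold, just past it without the prior count and just short of it with it. The other 16 did not reach it. Centrin Cetn3, the most abundant, was 1.08-fold higher in embryo 2, but not by spike-in totals, by TPM or with the length and GC trend removed. Of 16 pericentriolar and gamma-tubulin genes, 10 were higher in embryo 1, 1 by at least 1.5-fold, and the median log2 ratio was -0.045, or -0.16 with spike-in totals and -0.17 by TPM. That one was Nedd1, which brings gamma-tubulin rings to the spindle and is named after its value was seen, at 1.73-fold (1.55 to 1.93). The scaffold Akap9, the most abundant, was 1.07-fold higher in embryo 2, but not by spike-in totals. Tubg1, Mzt1 and Cep57 turned toward embryo 1 by TPM, and Cep57 also by spike-in totals. With the length and GC trend removed, Tubg1 and Mzt2 turned toward embryo 1, and Pcm1, Nin and Tubgcp3 toward embryo 2. Mzt1, Mzt2, Cep57, Pcm1, Nin and Tubgcp3 are named after their values were seen.

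Among 15 spindle pole and orientation genes with enough counts, 12 were higher in embryo 1, 5 by at least 1.5-fold, with a median log2 ratio of -0.30, or -0.48 by TPM. The 3 over 2-fold were the spindle factor Tpx2 at 2.12-fold, the spindle motor Kif11 at 2.04-fold and Gpsm2 at 2.03-fold (1.84 to 2.24). The mitotic kinases Aurka at 1.69-fold and Plk1 at 1.52-fold, named after their values were seen, were the others past 1.5-fold. Gpsm2 encodes LGN, the adaptor that orients the spindle in dividing progenitors. Gnai2, a G protein subunit that binds LGN and the most abundant of the list, differed by 1.06-fold, and the dynein and dynactin genes by at most 1.17-fold.

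Markers of cell types other than neural progenitors and neurons were also higher in embryo 1, and their part in the ratios of the 9 genes was not tested. The median log2 ratio of the erythroid genes, -0.86, was closer to that of the 9 genes than the G2 and M median was. With the length and GC trend removed it was not, at -0.97 beside -0.93 for G2 and M genes and -0.71 for the 9. The medians of endothelial, microglia and mesenchyme genes were -0.63, -1.30 and -5.43. All 8 mesenchyme genes with enough counts were at least 2-fold higher, led by Lum at 314-fold (107 to 1525), Col1a1 at 94.3-fold, Col3a1 at 69.6-fold and Dcn at 50.4-fold. Lum had 1044 counts in embryo 1 and 3 in embryo 2. The 8 microglia and macrophage genes were all higher in embryo 1, 5 by at least 2-fold, and summed to a TPM of 108 and 38.6. Mrc1 differed by 61.6-fold, Lyz2 by 5.94-fold, Csf1r by 2.79-fold and Aif1 by 2.61-fold, while C1qb, the most abundant, differed by 1.95-fold. The 8 endothelial genes, all higher in embryo 1, summed to 175 and 109, with Kdr at 2.72-fold, Cdh5 at 2.38-fold, Tek at 2.24-fold and the most abundant, Cldn5, at 1.13-fold. The 7 erythroid genes, also all higher, summed to 6854 and 4469, with Slc4a1 and Hbb-y at 3.21-fold, Hba-x at 2.47-fold and Hba-a2, the most abundant, at 1.35-fold.

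The deposited transcript tables listed a single transcript for Aspm, Cenpj and Cep152 and between 3 and 8 for the other 6 genes. Nde1 was carried mainly by a protein-coding transcript of 2287 nt, with 74.2% of the gene's transcript TPM in embryo 1 and 77.5% in embryo 2. A transcript of 2105 nt that is annotated as a target of nonsense-mediated decay had 190.5 counts and 15.8% of TPM in embryo 1 but 0 counts in embryo 2. By posterior mean TPM the shares of this transcript were 17.0% and 4.51%. Cep135 was carried by a 5537 nt coding transcript at 88.0% and 80.1%, with the rest on a transcript that retains an intron, and Stil by a 5285 nt coding transcript at 85.7% and 100%. The Stil share rests on thin data, since the other 14.3% in embryo 1 came from 5.52 counts on a 622 nt transcript. By posterior mean TPM the leading coding transcripts had smaller shares, 78.1% and 51.8% for Cep135 and 67.3% and 56.1% for Stil. Another Cep135 coding transcript, of 5313 nt and with 0 counts in each embryo, then had 8.68% and 26.5%.

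Short transcripts took a larger part of TPM than of reads. For Cdk5rap2, the 11847 nt transcript held 67.8% of counts in embryo 1 and 75.3% in embryo 2, but 29.0% and 33.3% of TPM. A 711 nt transcript took 27.8% and 30.4% of TPM with 33.9 and 24.5 counts. For Wdr62, transcripts under 1 kb held 37.5% and 41.8% of TPM but 5.36% and 6.18% of counts, and the 4742 nt coding transcript held 83.3% and 82.2% of counts. The TPM of Cdk5rap2 and Wdr62, and their places in the order of levels, therefore rest in part on these few reads. Mcph1 was divided in the same way in both embryos, with 50.9% and 52.6% of TPM on a 4662 nt coding transcript and 21.6% and 19.6% on one that retains an intron.

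**Figure D4:**
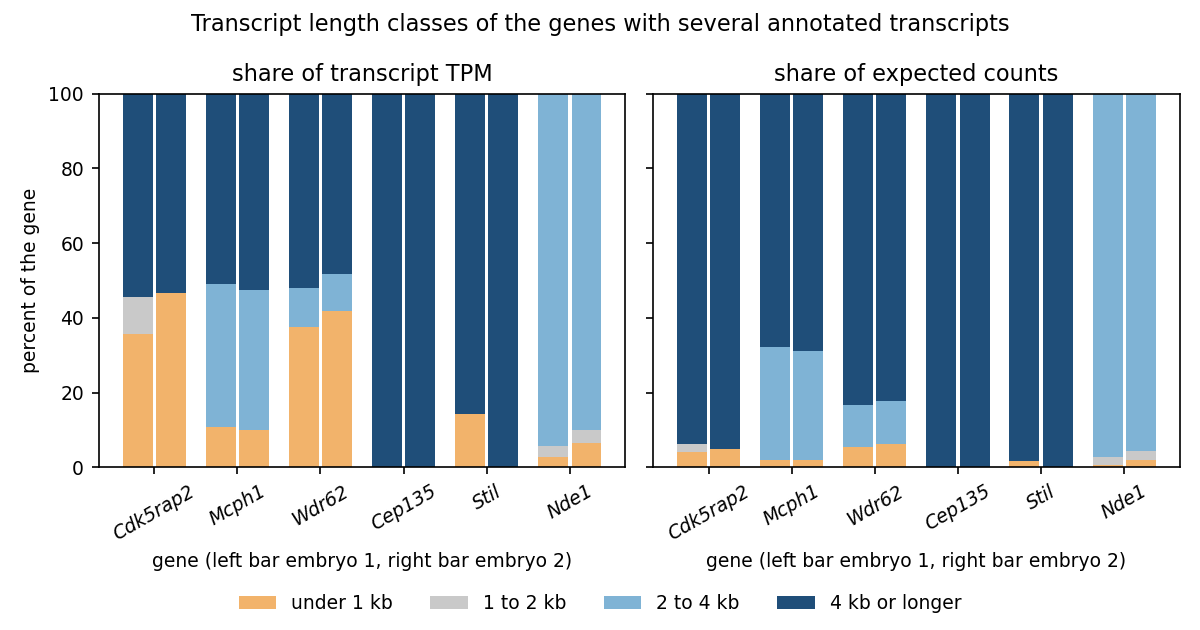
Percent of each gene's transcript TPM (left) and of its expected counts (right) held by transcripts of 4 length classes, for the 6 genes with several annotated transcripts, with embryo 1 as the left bar and embryo 2 as the right bar of each pair. Transcripts under 1 kb take 37.5% and 41.8% of the TPM of Wdr62 and 5.36% and 6.18% of its counts.

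Promoters of the 9 genes were examined for description only. Those of the G2 and M phase genes were not examined, and a link between motifs and the ratios was not tested. RefSeq windows on GRCm38.p6, from 250 bases before to 50 bases after a transcription start, were found for 8 of the 9 genes, Mcph1 having none in the table used. Exact matches were sought on both strands for 3 motifs known from cell cycle promoters. They were CCAAT, the box bound by NF-Y, TTTGAA, the core of the cell cycle genes homology region (CHR), and TTTNNCGC, a loose form of the E2F site. The sequences of the 4 genes with the largest ratios between the embryos are printed from 170 bases before to 30 bases after the start, 5′ to 3′ on the strand of the gene, with matches on either strand in capitals. Aspm lies at chr1:139454603-139454802 (plus strand), Stil at chr4:114999948-115000147 (plus), Wdr62 at chr7:30280381-30280580 (minus) and Nde1 at chr16:14163105-14163304 (plus).
Aspm: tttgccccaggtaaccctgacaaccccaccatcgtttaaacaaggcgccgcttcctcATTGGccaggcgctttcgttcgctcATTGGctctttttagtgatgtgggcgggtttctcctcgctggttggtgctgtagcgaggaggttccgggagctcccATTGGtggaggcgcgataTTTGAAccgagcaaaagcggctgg
Stil: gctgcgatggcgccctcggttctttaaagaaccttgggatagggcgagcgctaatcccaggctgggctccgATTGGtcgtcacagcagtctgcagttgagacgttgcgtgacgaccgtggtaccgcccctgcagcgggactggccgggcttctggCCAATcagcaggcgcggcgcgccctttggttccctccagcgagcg
Wdr62: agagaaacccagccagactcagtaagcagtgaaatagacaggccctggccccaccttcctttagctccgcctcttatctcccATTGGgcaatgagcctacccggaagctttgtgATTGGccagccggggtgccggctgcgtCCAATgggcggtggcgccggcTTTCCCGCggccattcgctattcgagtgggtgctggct
Nde1: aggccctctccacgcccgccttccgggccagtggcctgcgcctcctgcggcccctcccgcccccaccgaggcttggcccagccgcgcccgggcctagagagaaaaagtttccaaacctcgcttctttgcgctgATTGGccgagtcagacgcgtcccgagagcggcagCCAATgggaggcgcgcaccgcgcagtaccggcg

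A CCAAT match was present in the windows of 6 of the 8 genes, against 37.4% of all 32851 promoter windows. There were 3 matches each in Aspm, Wdr62, Cep152 and Stil, a number that 3.37% of all windows reached, 2 in Nde1 and 1 in Cep135. One of those of Stil lies beyond the stretch printed. Aspm had its CCAAT matches on the minus strand at positions -113, -88 and -12 from the start and 1 TTTGAA match that begins at position 7. Cdk5rap2 was the other gene with TTTGAA, which 17.9% of all windows hold, and it had no CCAAT match. TTTNNCGC was found in Wdr62 and Cep152, against 5.17% of all windows, and in Wdr62 it spans the 8 bases just before the start in the window printed. Cenpj held none of the 3 motifs in its window. None of the 3 motifs shares bases with another in these windows. A match is only a string of letters, and binding was not measured here.

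**Figure D5:**
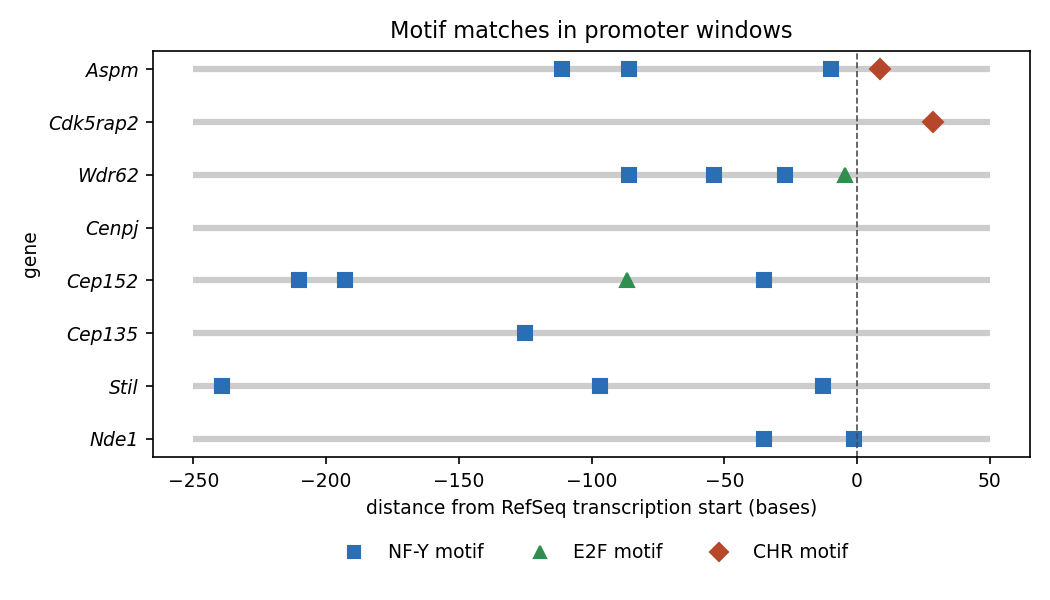
Positions of exact motif matches, in bases from the RefSeq transcription start at 0, in the promoter windows of the 8 genes with an entry (for Wdr62, 1 of its 2 windows). CCAAT boxes (NF-Y, squares) occur in 6 genes, E2F-like matches (triangles) in Wdr62 and Cep152 and CHR matches (diamonds) in Aspm and Cdk5rap2.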

How the data were processed

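Total RNA of 2 midbrains was measured. The deposited tables were made by the authors from alignments to mm10 with GENCODE M4, per the text records deposited with the samples. No source used here names the quantifier. The deposited expected counts are estimated numbers of reads for each gene or transcript, per the file headers. TPM and FPKM are the authors' own values, deposited beside posterior means and interval bounds whose level is not stated. Without molecular identifiers, reads may repeat molecules, so intervals cover counting error only.

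Symbols and coordinates came from GENCODE M21 (GRCm38), which matched 42462 of 43346 Ensembl rows (98.0%). The 26249 rows that name no gene or spike-in held 6 and 14 counts and were left out. Expected counts were rounded and scaled by TMM (edgeR 4.0.16) over genes with at least 10 summed counts. Log2 ratios used unrounded counts and a prior count of 0.5, and folds used none. Ratios have exact conditional binomial 95% intervals. The scaling and the log2 ratios were tested on simulated data, and the intervals were not. Alternatives were DESeq2 1.42.0 size factors, gene and spike-in totals, TPM ratios, posterior means, no filter and, added after the data were seen, removal of length and GC trends.

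The 9 genes and 14 comparison lists were chosen with earlier results of these data known. Named from each list are its most abundant gene, up to 4 genes over 2-fold and partners fixed by role. The 2 pups are separate samples, and no test was run.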

Additional observations from a re-analysis of the deposited data

How the results depend on the processing

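The direction of all 9 genes was the same under the 7 alternative scalings, filters and estimates, which gave log2 ratios of embryo 2 over embryo 1 from -1.52 (Stil, ratio of TPM) to -0.011 (Mcph1, length and GC trend removed). The number at least 2-fold higher in embryo 1 was 4 with spike-in totals and 4 with ratios of TPM, in place of 2. The median log2 ratio of all genes was -0.11 with spike-in totals and -0.13 with ratios of TPM, in place of 0.0057. Of 63 recomputed ratios of single genes, 60 stayed inside their counting interval. The exceptions were Cdk5rap2 at -0.59 and Stil at -1.52 by TPM and Mcph1 at -0.011 with the trend removed. The median of the young neuron list turned from 0.15 to -0.013 by TPM. Of 105 recomputed list medians, 10 others left the range between the median lower and the median upper counting bound of the genes in the list. Among them were those of further microcephaly genes with spike-in totals (-0.61) and S phase genes by TPM (-0.65). Those of endothelial genes by TPM (-0.80) and checkpoint genes with spike-in totals (-0.35) were others. Posterior means, FPKM and TPM without spike-ins and mitochondrial genes moved none of the 9 levels by more than 1 SD, which is wide at n = 2. For the 6 genes with several transcripts, the share of the leading one moved by more than 1 SD in 9 of 12 recomputations. Some of these recomputations used expected counts, which unlike TPM are not corrected for transcript length, so the unit itself differs. The cause of the moves by posterior mean TPM was not tested. Leaving out an embryo gives the level in the other. A ratio between the embryos cannot be recomputed without either of them. No paired analysis was possible because the series has 1 group. A count of 0 allows up to 3 counts. In each library this is a TPM of 0.157 for a transcript of 1 kb effective length, and less for a longer one.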

Other observations

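Loss of centrosomes or long mitosis is known to act on p53 through 53BP1 (Trp53bp1) and Usp28. Of the 5 genes examined for this pathway, 3 were higher in embryo 1 and the median log2 ratio was -0.24, or -0.036 with the length and GC trend removed. Trp53bp1, the most abundant, stood at a TPM of 149 in embryo 1 and 110.5 in embryo 2 and was 1.30-fold higher in embryo 1, and Usp28 was 1.40-fold higher with 15.9 and 10.3. Trp53 stood at 55.9 and 51.8 in TPM, whereas its scaled counts were 1.02-fold higher in embryo 2, but not by spike-in totals. Cdkn1a, the p53 target that encodes the cell cycle inhibitor p21 and is named after its value was seen, was 1.65-fold higher in embryo 2 (1.54 to 1.77), with TPM values of 74.9 and 97.6. The p53 target Mdm2 stood at 46.0 and 38.0.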
